A study of Drosophila melanogaster with 3 samples.

Results

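The genes described here encode the proteins of the cytosolic ribosome of Drosophila melanogaster. They were chosen by symbol from the protein-coding genes of the Ensembl annotation of the dm6 genome: symbols beginning with RpL or RpS and followed by a digit or P, together with sta, the fly RpSA gene. The rule found 93 of the 13968 protein-coding genes on the chromosome arms, 54 of the large subunit and 39 of the small subunit, and 5 of them have symbols that end in -like. The data are a chromatin immunoprecipitation sequencing (ChIP-seq) experiment on whole prepupae, of unknown age and with males and females pooled. The strain, CG16779-MiMIC, is a single line in which an eGFP exon inserted in an intron of CG16779 gives a CG16779-eGFP fusion gene, and the precipitating antibody recognises GFP. All libraries belong to 1 group of 3 biological replicates, so no second condition, stage or strain is compared, and control libraries were not analysed here. Whole animals mix all tissues, so binding in few cells and weak binding in many cannot be told apart.

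Each of the ribosome's proteins is needed in about equal amount with its partners and with the ribosomal RNA, and in flies many of these genes are known as Minute loci, at which the loss of 1 copy slows growth. Their promoters are unusual. Transcription of most begins in a short run of pyrimidines, the TCT initiator, in place of the common initiator and TATA box, and relies on the TBP-related factor TRF2. Several ribosomal proteins also exist as a second gene copy, and some of these copies are known to be enriched in the germ line.

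The 5 deposited lists on dm6 were used. Each replicate and the pooled replicates have a list of 30000 regions, and the final set of 4822 peaks, 4805 of them on the arms, was chosen by the authors with the irreproducible discovery rate (IDR), a measure of agreement between replicates. All values below come from region positions and from the rank of each region by the authors' own peak score, where rank 1 is the highest score on the arms. A gene is called bound when an IDR summit lies within 500 bp of any of its annotated start sites. For single replicates, the strongest regions are the 4805 with the highest scores, as many as the IDR peaks. Replicate 3 listed fewer protein-coding genes than the others. Read depth is unknown, and a gene without a listed region may still hold a weaker one.

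CG16779-eGFP was found at 46 of the 93 ribosomal protein genes, against 13.0% of all protein-coding genes. The share was 49.5% (exact 95% binomial interval 38.9% to 60.03%, counting error only) at ribosomal protein genes and 12.8% at the other 13875 genes. Among the strongest regions of single replicates, 61, 50 and 29 members had a summit in replicates 1, 2 and 3, where 14.5%, 15.8% and 11.4% of all protein-coding genes did. The 3 replicates averaged 50.2% ± 17.5 at ribosomal protein genes and 13.6% ± 2.17 at other genes (SD, n = 3), and the member share was above the share of other genes in each replicate. With 1 replicate left out, strong regions of the lower-numbered remaining replicate that overlapped a strong region of the other, a rule that also replaces the IDR, marked 20 members without replicate 1, 25 without replicate 2 and 49 without replicate 3, against 7.53%, 7.46% and 11.3% of all protein-coding genes. Members were also found beyond the strongest regions: 75 of 93 were somewhere in the list of replicate 1 and 72 in that of replicate 2, with backgrounds of 37.6% and 41.0%. In replicate 3 it was 39 of 93, against a background of 28.5%, and in the pooled list 59 of 93, against 32.0%. At the other end, 15 members (16.1%) were in none of the 5 lists, while 44.7% of all protein-coding genes were in none.

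**Figure D1:**
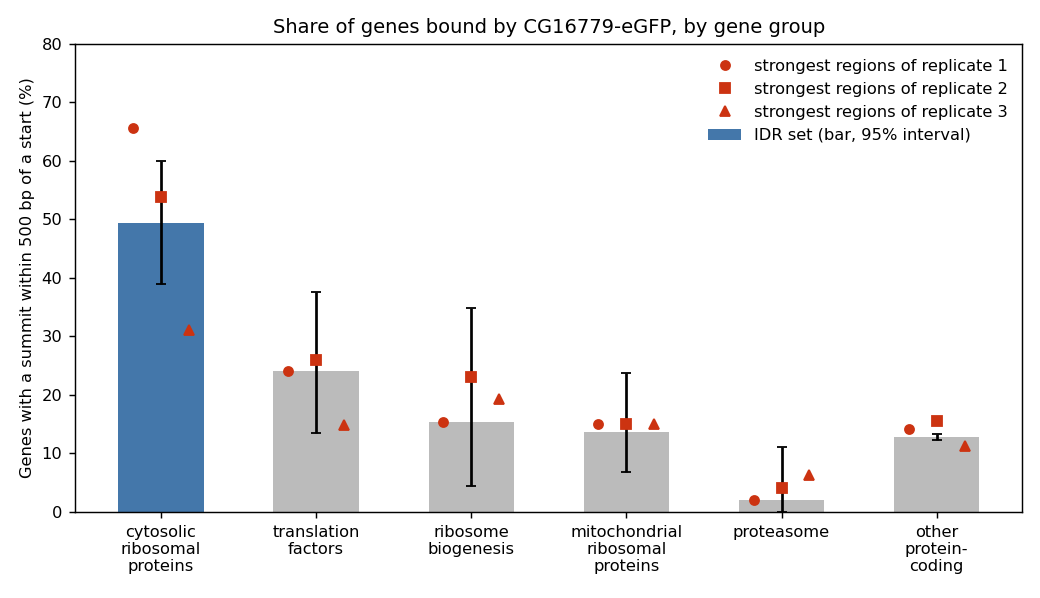
Share of genes with a summit within 500 bp of a start site (percent, vertical axis) for 6 gene groups. Bars are the IDR set with exact 95% binomial intervals, and red symbols are the strongest 4805 regions of each replicate; cytosolic ribosomal protein genes reached 49.5% in the IDR set and 31.2% to 65.6% in single replicates, against 12.8% of other genes in the IDR set.

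Groups of related function had lower shares in this set, and the upper bound of each interval was below the 38.9% at which that of the cytosolic ribosomal protein genes began. In replicate 3 alone, with 31.2% of members among its strongest regions (interval 22.0% to 41.6%), the intervals overlapped those of mitochondrial ribosomal protein genes (15.1%, to 25.4%), translation factors (14.8%, to 27.1%) and biogenesis genes (19.2%, to 39.3%). In the IDR set, of 73 mitochondrial ribosomal protein genes, which serve the ribosome inside mitochondria, 10 were bound (13.7%, interval 6.77% to 23.7%), close to the share of all genes. Translation factors, which start, extend and end protein synthesis, had 13 of 54 bound (24.1%, interval 13.5% to 37.6%). Of these, eIF6 is also counted among the biogenesis genes, and eIF1 is bound through the summit at RpL28, 46 bp from RpL28 and 335 bp from eIF1. Among 26 ribosome biogenesis genes found in the annotation, 4 were bound (15.4%, interval 4.36% to 34.9%): eIF6, a factor that keeps the large subunit from joining too early, at rank 81, the nucleolar GTPase gene Ns2 at rank 194, Rack1, whose product sits on the small subunit, at rank 1263, and Surf6 at rank 2434. Of 48 proteasome genes 1 was bound (2.08%, interval 0.0527% to 11.1%). The median rank was 1386 at bound ribosomal protein genes and 2026 at other bound genes. The highest-ranked member stood at 285, whereas other genes began at rank 1. In steps of 1000 ranks, the IDR set held 11, 21, 6, 6 and 2 members, the last class ending at 4805, and 534, 342, 336, 340 and 222 other genes. Members were most frequent in the second of these steps.

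The sequences that follow show start sites with and without a summit. Each runs from 60 bases before a start site through the first 15 bases from it on, 5′ to 3′ on the gene's strand, from the RefSeq release 6 assembly (dm6). Capitals mark the TCT pattern, CTTT with 2 pyrimidines on either side. The first 5 genes were bound with a summit within 8 bp of the start, and RpL9 and RpL27 were strong in replicates 1 and 2 only. RpL6 is a gene with the pattern that was in no list. RpS10a and RpL24-like, in no list either, have symbols like those of RpS10b and RpL24.
RpS10b: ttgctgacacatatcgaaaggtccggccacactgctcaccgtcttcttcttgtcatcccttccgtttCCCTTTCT
RpL30: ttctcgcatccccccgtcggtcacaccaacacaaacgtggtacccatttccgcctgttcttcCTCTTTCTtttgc
RpL24: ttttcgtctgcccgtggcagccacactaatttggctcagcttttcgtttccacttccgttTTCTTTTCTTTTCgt
RpL8: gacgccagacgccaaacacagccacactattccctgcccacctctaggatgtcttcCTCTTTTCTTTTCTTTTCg
RpLP1: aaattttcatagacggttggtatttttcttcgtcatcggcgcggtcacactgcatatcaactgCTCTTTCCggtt
RpL9: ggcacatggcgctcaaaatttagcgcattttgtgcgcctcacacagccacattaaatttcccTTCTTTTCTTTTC
RpL27: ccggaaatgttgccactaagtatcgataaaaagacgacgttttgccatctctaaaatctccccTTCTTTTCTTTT
RpL6: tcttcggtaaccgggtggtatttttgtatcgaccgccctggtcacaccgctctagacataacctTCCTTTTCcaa
RpS10a: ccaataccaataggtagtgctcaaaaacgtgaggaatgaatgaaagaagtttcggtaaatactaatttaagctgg
RpL24-like: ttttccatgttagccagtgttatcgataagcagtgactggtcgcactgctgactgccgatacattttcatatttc
In the 8 upper sequences the pyrimidine run falls on or close to the start, and the last 2 have no TCT pattern in the window. RpS10b lies at chrX:19597980-19598054 (plus strand) and RpL30 at chr2L:19009223-19009297 (minus strand). RpL24 lies at chr2L:13395078-13395152 (minus strand), RpL8 at chr3L:2587396-2587470 (plus strand) and RpLP1 at chr2L:419892-419966 (plus strand). RpL9 is at chr2L:11004139-11004213 (minus strand), RpL27 at chr3R:25685037-25685111 (minus strand) and RpL6 at chr3R:31596190-31596264 (minus strand). RpS10a is at chr3R:27652700-27652774 (plus strand) and RpL24-like at chr3R:11431568-11431642 (minus strand).

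The 12 members with the highest pooled scores were led by small subunit genes. RpS27 (FBgn0039300) stood at rank 285 of the IDR set (authors' score 869) and at ranks 224, 1447 and 163 in replicates 1, 2 and 3. RpS4 (FBgn0011284) ranked 424, and 272 and 421 in replicates 1 and 2, but was not in the list of replicate 3. RpS10b ranked 625, and 432, 932 and 973 in the replicates. RpS28b ranked 696, and 654, 1534 and 565. These were the only small subunit genes among the 12, and all but RpS4 were listed in every replicate.

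Large subunit genes made up the other 8. RpL30, whose yeast counterpart controls the splicing of its own transcript, had IDR rank 711 and ranked 329, 827 and 1337 in the replicates. RpL32, widely used in flies as a reference transcript, ranked 778 and stood at 1168 and 1617 in replicates 1 and 2 but at 20404 in replicate 3. RpL24, a protein at the interface between the subunits, ranked 847 and stood at 559, 672 and 1387. Both RpL31 (846) and RpL17 (853) encode proteins at the rim of the tunnel through which the new chain leaves. RpL17 was listed in all replicates at 706, 1038 and 1179, and RpL31 in replicates 1 and 2 alone, at 478 and 965. The remaining genes were RpL13 (859), RpL11 (906), which encodes a partner of the 5S RNA, and RpL3 (1014), which reaches to the centre where peptide bonds form. In replicates 1 and 2, RpL13 ranked 586 and 1385, RpL11 ranked 694 and 2524, and RpL3 ranked 877 and 729, and replicate 3 listed none of these. Thus 5 of the 12 strongest members were absent from the whole list of replicate 3.

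**Figure D2:**
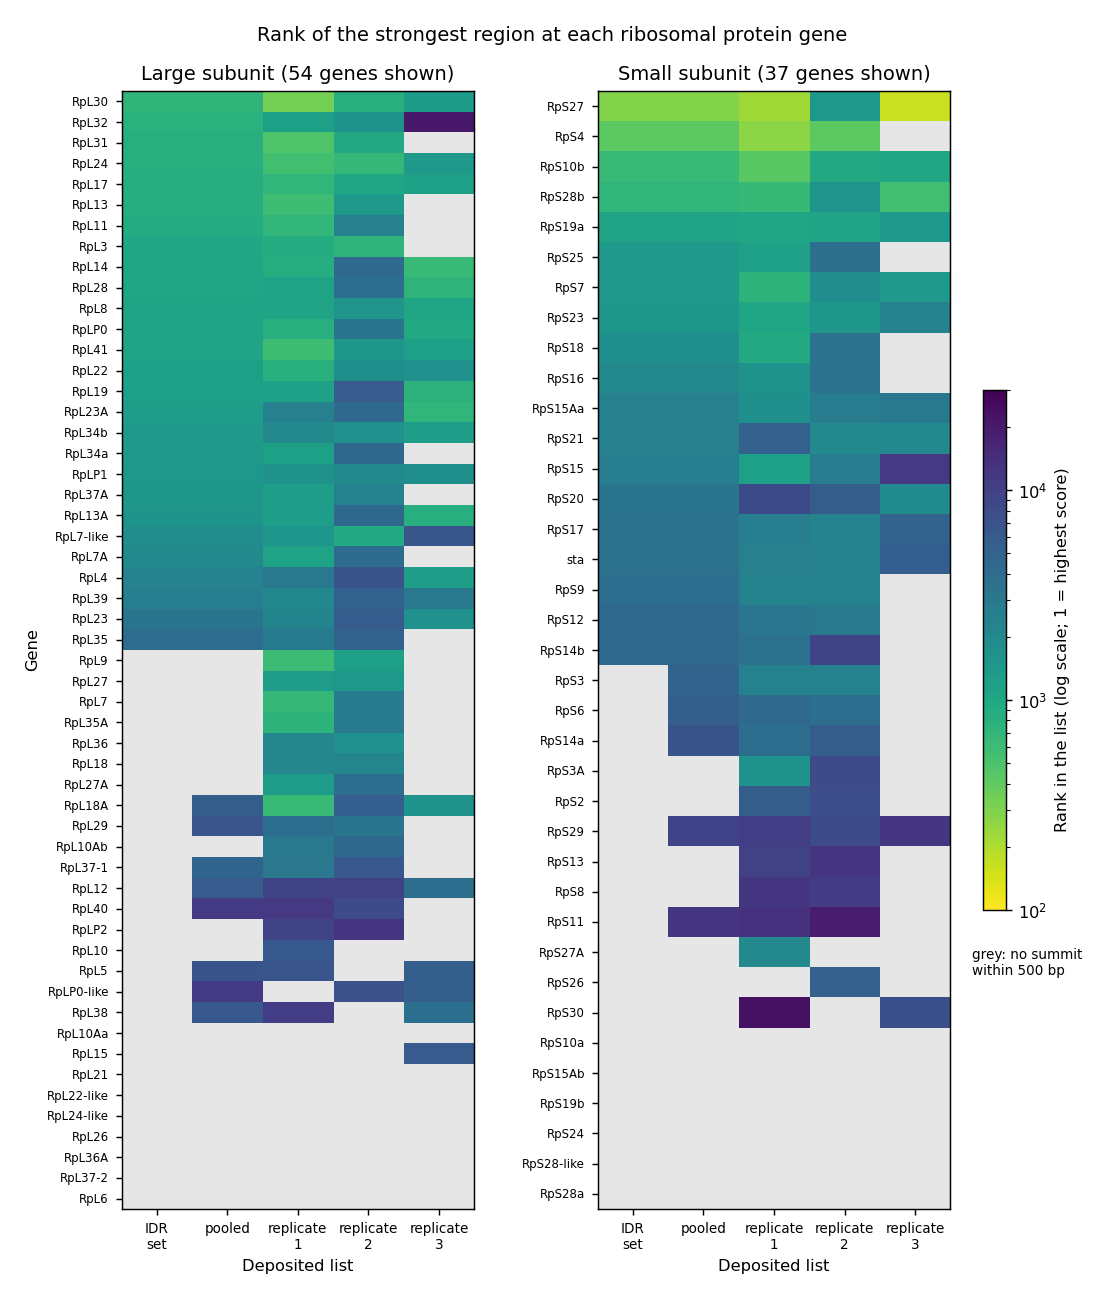
Rank of the strongest region within 500 bp of a start site (colour, log scale, rank 1 highest) for 54 large and 37 small subunit genes (rows) in the 5 deposited lists (columns). Grey means that no summit was listed there. Grey is most frequent in replicate 3, where 39 of all 93 genes were listed, against 75 in replicate 1 and 72 in replicate 2.

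Around the lower limit of the IDR set, whose lowest score was 173.8, the members just inside were RpS12, known in flies for its role in cell competition, at rank 4249 and RpS14b at rank 4280. The members just outside, by pooled rank, were RpL37-1 at 4817 and RpS3, whose product lines the mRNA entry channel, at 4905. RpS3 ranked 2459 and 2458 in replicates 1 and 2 and was not listed in replicate 3. RpL37-1 ranked 3158 and 6309 in replicates 1 and 2 and was likewise not listed in replicate 3. These 4 genes had much the same score, 171 to 190 in the pooled data, on either side of the limit.

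Both subunits had nearly the same share of bound genes in the IDR set. IDR summits lay at 27 of 54 large subunit genes (50%, exact interval 36.1% to 63.9%) and 19 of 39 small subunit genes (48.7%, interval 32.4% to 65.2%), a difference of 1.28 percentage points. Among the strongest regions of replicates 1, 2 and 3, 70.4%, 57.4% and 37.0% of the large subunit genes had a summit, against 59.0%, 48.7% and 23.1% of the small subunit genes. The large subunit share was higher in each replicate, by 11.4 ± 2.64 percentage points on average (SD, n = 3). An exact test over 3 replicates cannot give a p below 0.25, so none was made. In the whole lists the difference was 4.42 ± 5.21 percentage points, within its spread. Bound large subunit genes had a median IDR rank of 1183 and bound small subunit genes one of 2026. The difference in the IDR set changed sign with the window: it was -6.41 percentage points at 1000 bp, and 18.8 among IDR peaks above the median score.

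Among genes of known place in the ribosome, the stalk that calls in elongation factors is built on RpLP0 and the P1 and P2 proteins. RpLP0 ranked 1076 and RpLP1 ranked 1439, whereas RpLP2 was listed in replicates 1 and 2 alone, at 9217 and 12737. Of the exit tunnel proteins beyond RpL17 and RpL31, RpL39 ranked 2553, RpL35 ranked 3922 and RpL23A ranked 1242, whereas RpL26 was in no list. RpL5, which binds 5S RNA together with RpL11, was not bound and ranked 6608 and 5395 in replicates 1 and 3. RpS23, a protein near the decoding centre, ranked 1454. RpS6, the target of S6 kinase, was not bound but ranked 4218 and 3824 in replicates 1 and 2. Both genes that make a ribosomal protein fused to ubiquitin were unbound: RpL40 ranked 11603 and 8013 in replicates 1 and 2, and RpS27A ranked 2037 in replicate 1 alone. sta ranked 3459 and stood at 2514, 2456 and 5497 in the replicates. Neighbouring parts of the ribosome therefore include both bound and unbound genes.

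Summits at ribosomal protein genes sat on the start site. In the IDR set the median summit was 7.5 bp upstream of the nearest start (median -7.5 bp on the gene's strand, quartiles -23.8 and 15.2), and 37 of 46 (80.4%) lay within 50 bp. At the 1774 other bound genes the median was -117 bp, and 16.2% lay within 50 bp. Of the 13 bound translation factors, eEF1alpha1 (-2 bp), eEF5 (-16 bp), eIF5B (-35 bp) and eEF1gamma (-38 bp) also lay within 50 bp, and the rest further away. Of the 4 bound biogenesis genes, Rack1 alone (-11 bp) did. No bound mitochondrial ribosomal protein gene or proteasome gene did. Among members, the smallest distances were those of RpLP1, 0 bp, and RpL31, 1 bp. The largest was that of RpL23, 353 bp upstream, and RpL34b (226 bp) and RpL7-like (312 bp) also lay far upstream. At these 3 genes, and at no other bound member, the start of another gene was nearer to the summit: CG13531 at RpL23, CG8132 at RpL34b and JhI-21 at RpL7-like.

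The closeness to the start was also seen where no other promoter was near and where 1 start site was annotated. Of 23 bound members with no other protein-coding start within 500 bp of the summit, 21 (91.3%) had the summit within 50 bp and the median was 5 bp, while the same selection of 1205 other genes gave 18.0% and -91 bp. Of the 19 bound members with 1 annotated start site, 14 (73.7%) had it within 50 bp, against 14.2% of 766 other such genes. Both selections were made after the data were seen. In single replicates the members' medians were 8, 32.5 and -40 bp in replicates 1, 2 and 3, against -58, -57 and -87 bp at other genes. The share within 50 bp was 74.7%, 50% and 64.1% at members, against 18.9%, 18.2% and 16.1% at other genes. In the IDR set 13 of 46 member peaks (28.3%) were narrower than the default 440 bp, as were 29.8% of those at other bound genes. The shares below the default differed without a common direction elsewhere: 22.0% at members and 11.96% at other genes in the pooled list, and 9.33%, 1.39% and 12.8% at members in replicates 1, 2 and 3, against 6.34%, 7.47% and 8.11% at other genes.

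**Figure D3:**
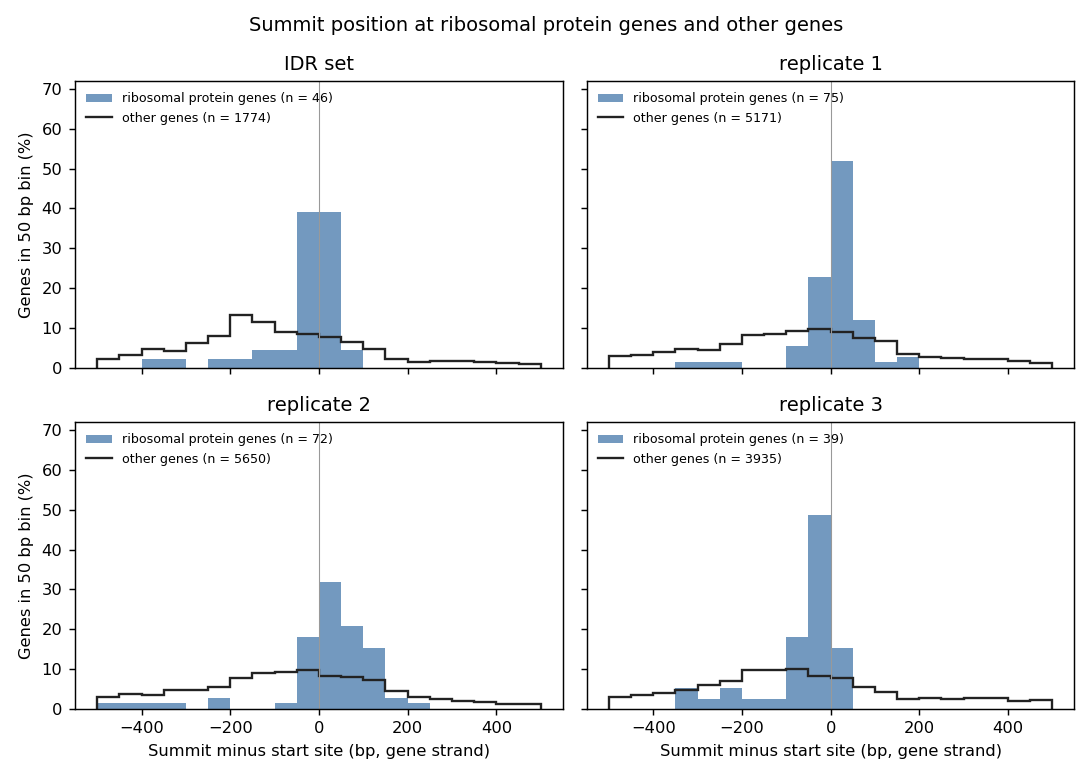
Position of the strongest summit relative to the nearest start site (bp on the gene's strand, negative upstream, 50 bp bins) as percent of listed genes, for ribosomal protein genes (filled) and other protein-coding genes (line) in the IDR set and in each replicate. In the IDR set 80.4% of the member summits lie within 50 bp of the start, against 16.2% of those at other genes.

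Replicates differed in where the summit fell at these genes. At the 37 members listed in both replicates 3 and 1, the summit of replicate 3 lay further upstream at 30 (81.1%), by a median of 42 bp (median shift -42 bp), whereas at 2673 other genes it did so at 48.3%, with a median shift of 1 bp. Between replicates 3 and 2 the median shift was -55 bp at 35 members, 29 of them (82.9%) further upstream in replicate 3, against 0 bp and 47.6% at 2671 other genes. Between replicates 2 and 1 it was 6.5 bp at 70 members and 0 bp at 4197 other genes. The shift was seen in both subunits, with 13 of 14 small subunit genes and 17 of 23 large subunit genes further upstream in replicate 3 than in replicate 1. RpS10b shows it, with summits at -35 bp in replicate 3 and at 6 and 8 bp in replicates 1 and 2, as does RpL22 at -64 bp in replicate 3 and at 3 and -20 bp in replicates 1 and 2. Over the 34 members listed in all replicates, against a background of 17.2% of all protein-coding genes, the medians were -37.5 bp in replicate 3, 3.5 bp in replicate 1 and 25.5 bp in replicate 2. Fragment length and depth of the libraries are unknown, and their part in the shift was not tested.

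**Figure D4:**
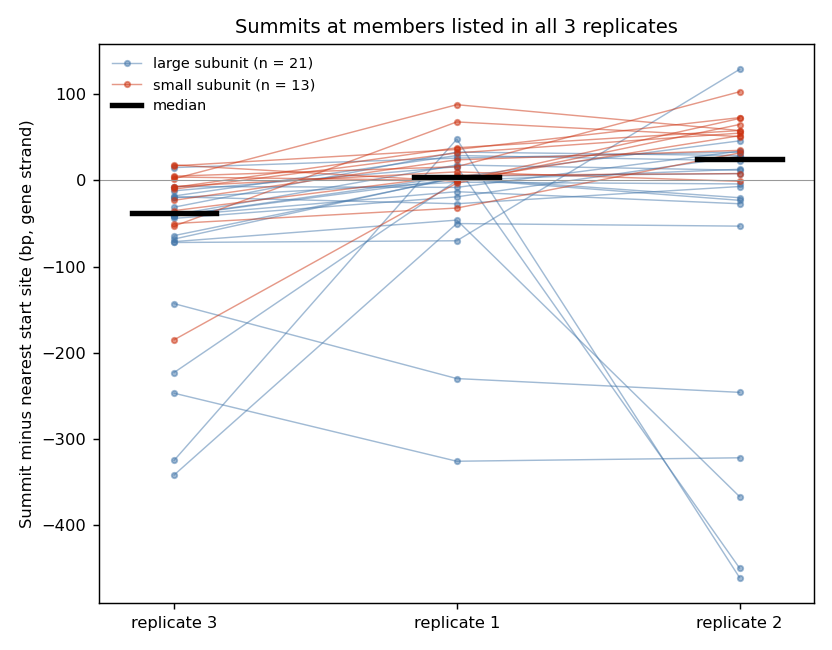
Summit minus nearest start site (bp on the gene's strand) in replicates 3, 1 and 2 at the 34 ribosomal protein genes listed in all of them. Thin lines join the summits of 1 gene, in blue for 21 large and red for 13 small subunit genes, and black bars are medians of -37.5, 3.5 and 25.5 bp.

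The median summit at large subunit genes lay further upstream than that at small subunit genes. The medians were -10 bp at 27 large and 8 bp at 19 small subunit genes in the IDR set. In replicates 1, 2 and 3 they were 5, 12.5 and -44 bp at large subunit genes, against 18, 56.5 and -9 bp at small subunit genes. The difference had the same sign in each replicate and averaged -30.7 ± 15.9 bp (SD, n = 3), and an exact test over 3 replicates cannot give a p below 0.25.

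Replicate 3 lacked many of the ribosomal protein genes that the others ranked high. Of the 46 bound members, 15 (32.6%) were missing from its whole list, against 323 of 1774 other bound genes (18.2%), and none was missing from replicates 1 and 2. Those 15 were RpS4, RpL31, RpL13, RpL11, RpL3, RpS25, RpL34a, RpL37A, RpS18, RpL7A, RpS16, RpS9, RpL35, RpS12 and RpS14b. In replicates 1 and 2 their ranks ran from 272 at RpS4 to 9280 at RpS14b. RpS25 ranked 1159 and 3637, RpS18 910 and 3458 and RpL37A 1220 and 2425. RpL7A ranked 1096 and 4038 in replicates 1 and 2, RpS16 1590 and 3554, RpS9 2334 and 2455, and RpL35 2783 and 5132. RpS12 ranked 3214 and 2981, and RpS14b 3464 and 9280. Most of these genes were among the strongest regions of both replicates. Among the strongest regions of all 3 replicates there were 20 members, against 6.74% of all protein-coding genes, and all 20 were bound. The IDR set is itself chosen by agreement between replicates, and the bound share of other such genes was not counted. Replicates 1 and 2 alone shared 49 members, against a background of 11.4%. Here a gene needed its own summit among the strongest regions of each list, while the overlap rule used above to leave out a replicate gave a background of 11.3%.

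A further 11 members were among the strongest regions of both replicates 1 and 2 without being bound. They were RpL7, RpL9, RpL10Ab, RpL18, RpL27, RpL27A, RpL29, RpL35A, RpL36, RpS3 and RpS6, so 9 of them are large subunit genes. Of all 49 members strong in replicates 1 and 2, 31 are large subunit genes, as are 54 of all 93 members. RpL9 ranked 600 and 1171 in replicates 1 and 2, the first of these above RpL3, yet the nearest pooled summit was 11528 bp away and the nearest of replicate 3 was 19365 bp away. RpL35A ranked 749 and 2825, with the nearest pooled summit at 21930 bp, and RpL27 ranked 1275 and 1435, with the nearest at 4342 bp. RpL7, RpL10Ab, RpL18, RpL27A and RpL36 were likewise missing from the whole pooled list, whereas RpL29, RpS3 and RpS6 had a pooled summit at 116, 107 and 56 bp from a start, with ranks of 6607, 4905 and 5316. Of the 49 members strong in replicates 1 and 2, 22.4% were not bound, 49.0% were missing from the list of replicate 3 and 16.3% from that of the pooled data. The same shares among 1540 other genes strong in both were 14.9%, 27.3% and 9.09%. Of these 49 members and the 46 bound ones, 38 were shared.

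In 9 of 13 groups of ribosomal protein genes with like symbols, exactly 1 gene was bound. The groups were made from symbols alone, their genes are called copies here, and some, such as RpL24-like, may not be duplicates. They hold 27 members, of which 11 were bound. Against these stood 35 of the 66 members without a copy, 49.5% of all members and 13.0% of all protein-coding genes. In the RpL34 group both copies were bound, and in 3 groups, RpL10A and RpL37 among them, none was. How often exactly 1 gene would be bound in groups drawn from all members was not counted. Of the 27, 10 were in no list at all, against 5 of the 66 members without a copy and 44.7% of all protein-coding genes. The 10 included RpL10Aa, RpL22-like, RpL24-like, RpL37-2, RpS10a, RpS15Ab, RpS19b, RpS28a and RpS28-like. RpL22-like, RpS10a and RpS19b are copies known to be enriched in the germ line. The members without a copy that were in no list were RpL6, RpL21, RpL26, RpL36A and RpS24.

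In 9 groups exactly 1 copy was in a replicate list, and most of these copies were found in every replicate. RpL22 ranked 810, 1769 and 1682 in replicates 1, 2 and 3 and RpS19a ranked 1054, 1078 and 1423. RpS15Aa ranked 1731, 2760 and 2998, beside RpS10b, RpS28b and RpL24 above. The exceptions include RpL10Ab, at 3014 and 4348, and RpL37-1, at 3158 and 6309, both in replicates 1 and 2 alone. Reads could be shared where copies are nearly identical. RpS14a and RpS14b are neighbours on X with nearly identical products, but their promoters differ. GC content was 37.3% and 44.3% from 250 bp before to 50 bp after the canonical start. RpS14b was bound at 4280 and RpS14a had a pooled rank of 6884, with 3831 and 5525 in replicates 1 and 2. Whether reads near their starts were shared was not tested. How the authors treated reads that match several places was not stated in the labels or file listings used here.

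In the RpL7 group the -like gene was the bound one. RpL7-like and RpL24-like belong to families whose yeast relatives act in building the large subunit. RpL7-like ranked 1485, 918 and 6516 in replicates 1, 2 and 3 and 1838 in the IDR set, at the summit nearer to JhI-21, whereas RpL7 ranked 668 and 2815 in replicates 1 and 2 and was not bound. RpLP0 ranked 835, 3248 and 941, and RpLP0-like was found at 7303 and 5366 in replicates 2 and 3 and at 11364 in the pooled list. In the RpL34 group, RpL34a ranked 1185 and 4440 in replicates 1 and 2 and was missing from replicate 3, and RpL34b ranked 2040, 1675 and 1224. Leaving out the 5 -like genes gave 45 bound of 88.

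Each bound member had its own summit, with 46 distinct summits for 46 genes, and RpL13A had more than 1. For 23 of the 46, the start of another protein-coding gene lay within 500 bp of the summit, so that the peak could be assigned to either gene. No such start was near at the other 23, nor at 1205 of the 1774 other bound genes. The members' neighbours include Dref, which encodes the factor that binds the DRE motif. Its start lay 89 bp from the summit at RpL13, against 5 bp for RpL13. Nelf-E, a subunit of the negative elongation factor, starts 109 bp from the summit at RpL14, against 18 bp for RpL14. At RpL28 the summit was 46 bp from its own start and 335 bp from that of eIF1, which helps to choose the start codon. At RpS20 the 2 distances were nearly the same, 162 bp to RpS20 and 171 bp to CG17271. No member had an IDR summit in its body beyond 500 bp from a start. Members are short, however, with a median gene length of 1318 bp against 2178 bp at other genes, which leaves little body. The same share of all protein-coding genes was not counted.

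The TCT initiator was common at members, with a higher share at those bound. It lay within 10 bp of a start site at 70 of 93 members and at 173 of 13875 other genes (1.25%). Among bound members 39 of 46 (84.8%) had it, and among unbound members 31 of 47 (66.0%). Of the 11 members strong in replicates 1 and 2 only, 10 had it, and of the 15 in no list, 6 did. Counted the other way, 39 of 70 members with the pattern (55.7%) and 7 of 23 without it (30.4%) were bound. Much of this followed the gene copies: within the groups of copies 10 of 11 bound and 7 of 16 unbound members had the pattern, and outside them 29 of 35 and 24 of 31 did. Other genes with the pattern were bound in 48 of 173 cases (27.7%), and other genes without it in 12.6%.

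Gene arrangement also differed between bound and unbound members. A divergent start within 500 bp was annotated at 25 of 46 bound members (54.3%) and 14 of 47 unbound members (29.8%), and at 37.3% of bound and 28.4% of unbound other genes. More than 1 start site was annotated at 27 bound (58.7%) and 18 unbound members (38.3%), against 56.8% of bound and 21.9% of unbound other genes. Among members this difference lay in the gene copies, with 8 of 11 bound and 2 of 16 unbound, while outside them it was 19 of 35 bound and 16 of 31 unbound. For the divergent start the counts were 6 of 11 and 7 of 16 in the copies, and 19 of 35 and 7 of 31 outside them. A gene with several start sites has more places to be called bound. With the canonical start alone the number of bound members stayed at 46, while the share of all genes was 10.6%. A small nucleolar RNA was encoded within 18 bound (39.1%) and 11 unbound members (23.4%), against 0.846% of bound and 0.331% of unbound other genes. In the copies it was 1 of 11 bound and 2 of 16 unbound members, and outside them 17 of 35 and 9 of 31. The promoter window ran from 250 bp before to 50 bp after the canonical start. Its median GC content was 39.3% at bound and 35.7% at unbound members, against 40.7% and 37.7% at bound and unbound other genes. Beyond this split by copies, features that overlap in the same genes were not separated.

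Short promoter motifs were sought on both strands in that window, at the canonical start alone, whereas the TCT initiator was sought at every start. Motifs at other starts were therefore missed, such as Motif 1 at the RpLP0 start nearest to its IDR summit. Counted so, the motifs set bound and unbound members apart less clearly, but the searches are unlike. The DRE, searched as TATCGATA, was present at 12 bound (26.1%) and 16 unbound members (34.0%), and at 8.79% of all other genes. GAGAGA, the repeat recognised by GAGA factor, was present at 3 bound and 1 unbound members (6.52% and 2.13%), although 22.4% of other bound genes and 11.2% of other unbound genes had it. TATAAA was present at 18 bound (39.1%) and 24 unbound members (51.1%), CACGTG at 6 and 5, and CACACACA at 2 and 1, against 45.3%, 4.20% and 4.41% of other genes. Motif 1, the core promoter motif bound by M1BP, was found at 6 bound and 3 unbound members, against 4.32% of other genes. The bound genes with it at the canonical start were RpL19, RpLP1, RpS9, RpS15, RpS23 and sta. The 3 unbound ones were RpL7, RpL27 and RpL27A, all strong in replicates 1 and 2. Of the 36 members in neither class none had the motif at that start. Motif 1 counts fell to 3 and 2 in a window of 100 bp either side of the start.

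**Figure D5:**
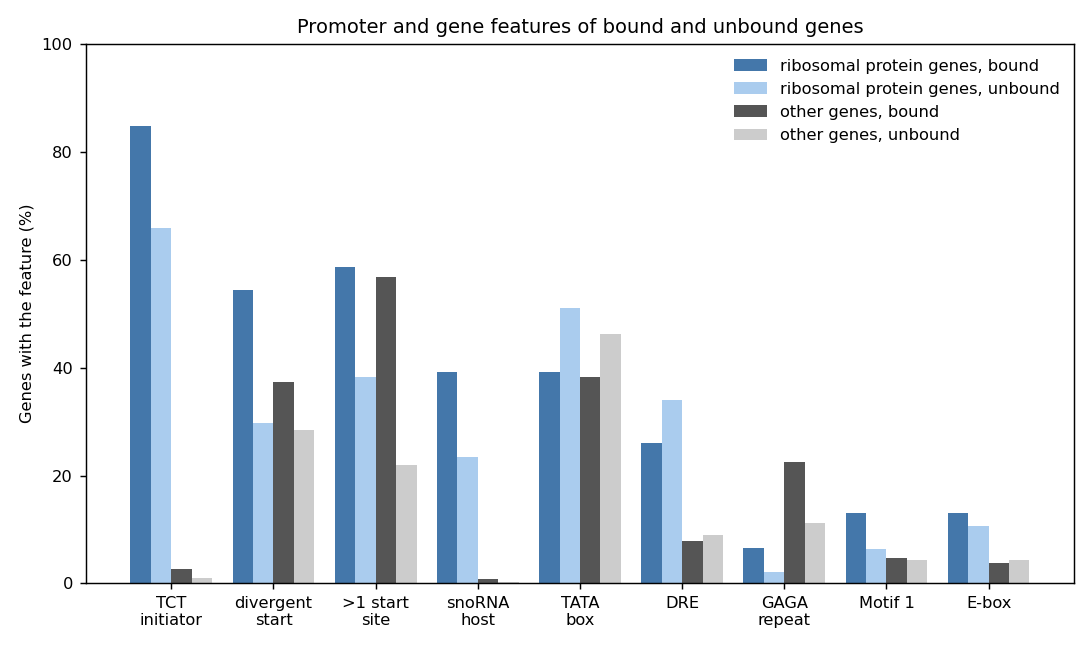
Share of genes with each promoter or gene feature (percent) among 46 bound and 47 unbound ribosomal protein genes and among 1774 bound and 12101 unbound other protein-coding genes. The TCT initiator was present at 84.8% of bound and 66.0% of unbound ribosomal protein genes and at 2.71% and 1.03% of bound and unbound other genes.

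Bound members lay on all the large arms. The counts were 7 of 19 on 2L, 10 of 21 on 2R, 9 of 14 on 3L, 10 of 23 on 3R and 10 of 15 on X, and the single member on chromosome 4, RpS3A, was not bound, nor was any of the 79 other genes there. The share of other genes bound was 12.5% to 14.2% on the large arms. RpS3A ranked 1613 and 7962 in replicates 1 and 2. The 3 members closest to the centromeric end of a large arm, RpL15, RpL5 and RpL21, lay 0.84, 0.98 and 1.27 Mb from it. All were unbound, as were 47 members in all, and they were picked out after their values were seen. The share of other genes bound near the centromeric ends was not counted, so a link with this position was not tested. RpL15 was listed in replicate 3 alone, at 5800, and was the only member found in that replicate and in neither of the others.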

How the data were processed

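ChIP-seq regions from 3 biological replicates of 1 group were analysed. The value used for ranking is the authors' deposited peak score, which has its own scale in each replicate list, while the pooled list and the IDR set share one. Per the file listings, the authors derived a replicate's regions from its alignments plus 1 more input file common to all, the pooled regions from the 3 alignments together, and the IDR set from all of these. The caller, aligner, their versions and the IDR threshold were not stated in the labels or file listings used here. The 5 lists on dm3 were not used. Depth per sample is unknown, so intervals cover counting error only.

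Regions on the chromosome arms, 4 and Y included, were ranked by score and annotated with Ensembl release 115, whose assembly is the dm6 build of the files. Each gene took its highest-ranked region with a summit within 500 bp of any start site, and distance was measured to the nearest of those starts. With 1 group and with genes that are not replicates, no test was made, and values are counts, medians and SDs over replicates. Copies were grouped by symbol after removing a final lower-case letter, -1, -2 or -like. Motifs were exact matches within 250 bp before to 50 bp after the canonical start, and 1 gene without one on the arms has no motif value. Ranks in the lists are given for the 12 members with the highest pooled score, the copies, bound members missing from a replicate list and those next to the IDR limit, and other members were named for their role. A group of copies is counted but not reported here by gene. The members, lists and features were chosen with earlier results of these data known. Assignment of summits to genes was tested on simulated summits planted at genes with 1 start site, far from the next such start. Genes with several starts and peaks shared by 2 genes were not tested in this way. Alternatives were other windows, start sites, overlap rules, score limits, the pooled list and leaving out each replicate. Python 3.11.15, numpy 2.4.6, pandas 2.3.3, scipy 1.17.1 and matplotlib 3.10.9 were used.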

Additional observations from a re-analysis of the deposited data

How the results depend on the processing

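The number of bound ribosomal protein genes, 46, was between 34 (IDR peaks above the median score) and 59 (whole pooled list) under the other windows, start sites, overlap rules and score limits, always within 1.5 times. Leaving out 1 replicate gave 20 (without replicate 1) to 49 (without replicate 3), with 25 without replicate 2. These sets take overlapping strong regions of 2 replicates in place of the IDR rule, so the replicate and the rule changed together and their parts cannot be told apart. The share of all genes bound, 13.0%, became 10.2% and 16.1% at 250 and 1000 bp, 10.6% with canonical starts, 8.33% with the peak over the start, 7.51% above the median score, 32.0% in the pooled list, and 7.46% to 11.3% with 1 replicate left out. The members' share was 1.98 (pooled list) to 5.42 times (peak over the start) that of all genes in these settings. Large minus small subunit share was -2.42 and -6.41 percentage points at 250 and 1000 bp, -6.12 with the peak over the start, 18.8 above the median score, and 1.71 to 15.4 with 1 replicate left out. The median distance stayed between -20 (members with 1 start site) and 27.5 bp (without replicate 1) and moved by less than the spread of the replicate medians, 36.9 bp (SD, n = 3). Members among the strongest regions of every replicate numbered 20, against 6.74% of all protein-coding genes, and 34 in whole lists, against 17.2%. There were 12 with the 2000 strongest and 31 with the 10000 strongest, where the share of all genes was not counted. With 1 replicate left out there were 21 to 49, counting genes by their own summit in each list. The 49, without replicate 3, stood against 11.4% of all genes, and the shares for the other pairs of replicates were not counted. In the 100 bp window, motif counts at bound and unbound members became 7 and 9 for TATAAA, 1 and 0 for GAGAGA, 0 and 1 for CACACACA and 3 and 2 for Motif 1. The cause was not tested. No paired analysis was possible because all samples belong to 1 group.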

Other observations

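Reading the printed promoters led to counts of 8 further short letter strings in the window from 250 bp before to 50 bp after the canonical start, so the following was chosen after the sequences were seen and has no test. TTTCCG, on either strand, was present at 27 of 46 bound ribosomal protein genes (58.7%) and 16 of 47 unbound ones (34.0%), against 16.2% of other protein-coding genes. The unbound genes with it were spread unevenly: it was present at 8 of the 11 that were strong in replicates 1 and 2, and at 8 of the remaining 36. On the gene's own strand it was present at 26 bound and 12 unbound members, against 8.47% of other genes. Copies that overlap the TCT pattern account for some of these, and without them 22 bound and 13 unbound members had the string, against 15.8% of other genes. With copies that overlap the TCT pattern included again, the 28 copies on the gene strand at bound members had a median position of 6 bp from the start. It was -72.5 bp for 178 copies at other bound genes. Copies that overlap a TCT pattern at the start lie near the start in any case, and positions without them were not computed. In the printed sequences the string stands 5′ of the TCT run in RpL30. Other bound genes had it in 17.8% and other unbound genes in 15.9%.

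CACACT, a string within Motif 1, was present at 18 bound and 18 unbound members (39.1% and 38.3%), against 20.6% of other genes. Among the unbound members it was present at 8 of the 11 that were strong in replicates 1 and 2 and at 10 of the remaining 36. Of the remaining 6 strings, GTCACAC was present at 10 bound and 5 unbound members, GCCACAC at 9 and 7, GGTATTTT at 8 and 6, GGCCACAC at 5 and 4 and GCNCACAC at 2 and 0, while CCACACT went the other way, at 6 bound and 9 unbound members. Their shares at other genes were 9.33%, 4.81%, 4.99%, 2.08%, 4.93% and 4.50%, in the same order.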
